A study of Arabidopsis thaliana with 9 samples.

Results

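The subject is a set of 10 Arabidopsis thaliana genes of nitrate uptake, reduction and response, chosen by name and followed through 3 genotypes of light-grown seedlings. All 10 had a row among the 33977 genes of each of the authors' 3 deposited gene tables. They are the transporter genes NRT1.1, NRT2.1 and NRT2.2, the transport partner gene NAR2.1, the nitrate reductase genes NIA1 and NIA2, the nitrite reductase gene NIR, and the response genes BT1, BT2 and LBD38. RNA came from whole seedlings of ecotype Col, 4 days old, raised on MS plates under continuous white light. The wild type (Col), a mutant of the transcription factor gene MYB30 (myb30) and an overexpressor of it (MYB30-OE) were each sampled in 3 libraries, 9 in all. The myb30 allele, the promoter behind the overexpression and the number of independent lines are not given in the sources used here. MS medium supplies both nitrate and ammonium, and the plates were the same for the 3 genotypes as far as the labels say.

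Plants take nitrate up through low-affinity and dual-affinity transporters such as NRT1.1, which is also a nitrate sensor, and through high-affinity NRT2 transporters that work with the partner protein NAR2.1. Nitrate reductase in the cytosol turns nitrate into nitrite, nitrite reductase in plastids turns nitrite into ammonium, and glutamine synthetase and glutamate synthase build ammonium into amino acids. Nitrate itself raises the transcripts of many of these genes within minutes, and light and sugars act on the nitrate reductase genes as well. BT1 and BT2 encode BTB/TAZ scaffold proteins that respond to nutrients and limit nitrate uptake, and LBD38 encodes a nitrate-induced repressor of nitrogen-responsive genes.

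The upstream sequences of BT1, BT2, NIA1 and NIA2 are shown first because these genes passed in all 3 comparisons below, which share libraries. NIR, the next step of the pathway, is shown beside them. Each line holds the 250 bases before the start of the RefSeq gene model in TAIR10.1, read 5′ to 3′ on the gene's strand. In each gene shown, that start lies upstream of the start in the deposited annotation, whose positions are given below. For BT2, on the minus strand, the deposited model starts at 17910525 and the window begins at 17910739. Bases between the windows and the deposited starts were not searched. Capitals mark matches on either strand to AAGAG or TGACCCTT (letters of the nitrate-responsive element), GAATC or GAATNTTC (NIGT1 family of nitrate repressors), and AACAAAC or ACCAAAC (MYB proteins). GAATC can lie inside GAATNTTC, and the others do not contain each other. The windows are chr5:25335571-25335820 for BT1, chr3:17910739-17910988 for BT2 and chr1:29239485-29239734 for NIA1, all on the minus strand, and chr1:14158202-14158451 for NIA2 and chr2:6810145-6810394 for NIR on the plus strand.
BT1: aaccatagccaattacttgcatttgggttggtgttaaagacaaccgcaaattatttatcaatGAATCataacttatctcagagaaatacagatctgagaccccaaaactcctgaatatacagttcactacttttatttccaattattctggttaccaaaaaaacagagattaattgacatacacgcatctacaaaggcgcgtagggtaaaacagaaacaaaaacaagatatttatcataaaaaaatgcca
BT2: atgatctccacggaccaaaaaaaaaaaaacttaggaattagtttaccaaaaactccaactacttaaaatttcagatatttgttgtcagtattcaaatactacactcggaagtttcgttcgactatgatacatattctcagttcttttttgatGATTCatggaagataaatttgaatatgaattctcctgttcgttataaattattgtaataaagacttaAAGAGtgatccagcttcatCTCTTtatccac
NIA1: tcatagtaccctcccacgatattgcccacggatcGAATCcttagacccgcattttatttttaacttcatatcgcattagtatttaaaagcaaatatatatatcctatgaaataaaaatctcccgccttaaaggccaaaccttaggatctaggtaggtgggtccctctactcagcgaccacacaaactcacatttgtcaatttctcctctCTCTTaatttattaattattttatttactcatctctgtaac
NIA2: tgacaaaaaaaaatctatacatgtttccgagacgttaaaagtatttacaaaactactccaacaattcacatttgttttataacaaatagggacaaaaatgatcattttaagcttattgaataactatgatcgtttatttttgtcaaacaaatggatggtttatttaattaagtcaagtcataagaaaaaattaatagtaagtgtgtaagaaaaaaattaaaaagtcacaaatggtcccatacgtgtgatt
NIR: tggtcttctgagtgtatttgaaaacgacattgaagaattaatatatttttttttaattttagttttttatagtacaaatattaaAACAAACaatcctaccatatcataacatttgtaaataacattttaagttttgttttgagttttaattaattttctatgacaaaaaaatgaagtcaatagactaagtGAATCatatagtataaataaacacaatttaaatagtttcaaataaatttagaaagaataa
The windows of the 10 genes differed in which motif they held. GAATC stood in 8 of the 10 windows and in 38.9% of 27437 windows of protein-coding genes. AAGAG stood in 5 of the 10 and in 51.7% of all windows. AACAAAC was in 1 of the 10, that of NIR, where it begins 166 bases before the start, and in 11.2% of all windows. TGACCCTT, GAATNTTC and ACCAAAC were in none of the 10 and in 0.426%, 5.34% and 8.29% of all windows. A match describes these letters only. None of the 6 motifs was found in the NIA2 window.

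For each gene the tables carry its log2 fold change, its log2 CPM (a read count scaled to library size) averaged over both genotypes and an unadjusted p-value, and no value of a single library. The spread between the 3 libraries of a genotype therefore enters only through the authors' p-values. These were adjusted here over all genes with at least 1 read (Benjamini-Hochberg, threshold 0.05). Nothing in the labels says whether the libraries of a genotype were grown apart. The p-values weigh the difference between genotypes against the spread between libraries, which may be technical, and do not measure that spread itself. Levels per genotype were derived from the deposited averages and fold changes and are called implied CPM. Each genotype occurs in 2 tables, and the mean of both values is given. The implied depth is 33.1 to 35.2 M gene reads (mega, or 1e6) per library, and 3 reads over the 3 libraries of a genotype correspond to 0.0287 to 0.0296 CPM. Intervals of 95% were worked back from the deposited p-values and are approximate. In simulated data such intervals held the change in 87.5% of genes changed 2-fold or 4-fold. MYB30 itself stood at 32 implied CPM in Col, 4.55 in the mutant and 622 in the overexpressor (deposited log2 fold changes -2.82 and 4.28). The sign of the fold changes was read from it, so it is no separate check of the labels.

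Of the 10 genes, 4 fell in myb30 and none rose. These were the nitrate reductase genes NIA1 and NIA2 and the scaffold genes BT1 and BT2. In MYB30-OE, 5 rose, namely NIA1, NIA2, BT1, BT2 and NRT2.1, and none fell. NRT1.1, NAR2.1, NIR and LBD38 passed in neither comparison with Col. Over all 25713 genes tested in myb30, 10.7% fell and 10.8% rose, 21.5% in either direction, beside 40% of the set. Over all 25593 tested in MYB30-OE, 5.99% rose and 5.49% fell, 11.5% in either direction, beside 50% of the set. The shares of all tested genes, here and below, include genes with few reads and were not matched for level. In myb30 against Col, 18641 of the 25713 averaged 1 CPM or more, and so did 8 of the 10. With Bonferroni adjustment the count in MYB30-OE was 3, and with a 1.5-fold change required beside the Benjamini-Hochberg threshold it was 2. Both comparisons use the same 3 Col libraries, so they are not independent, and an error in a Col value would shift both log2 fold changes the same way. The set was chosen with earlier results of these data known, and its counts are a description.

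**Figure D1:**
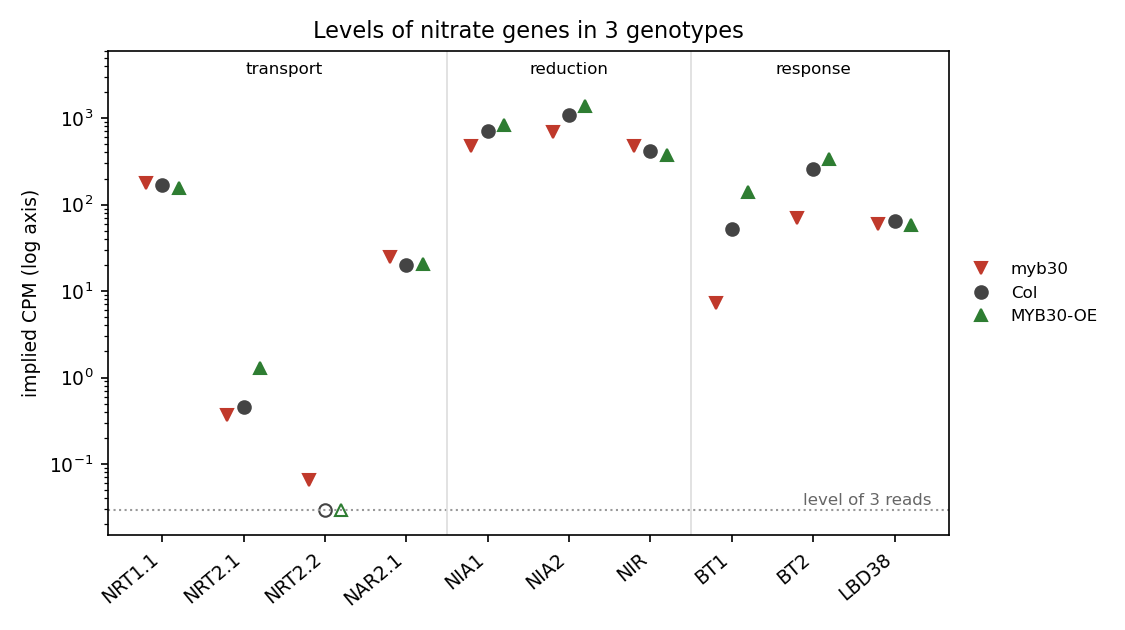
Implied CPM (log axis) of the 10 genes in myb30 (red, downward triangles), Col (grey circles) and MYB30-OE (green, upward triangles), each the mean of the values from 2 deposited tables. Open symbols mark values under 3 reads and are drawn at that level; BT1 spans 7.27 to 141 CPM, whereas LBD38 spans 57.8 to 64.5.

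In implied CPM per kilobase of exon, the order in Col was NIA2 at 348, NIA1 at 232, NIR at 197, BT2 at 182, NRT1.1 at 78.9, LBD38 at 62.1, BT1 at 36.9, NAR2.1 at 17.5 and NRT2.1 at 0.242, with NRT2.2 last. In myb30, NIR at 225 and NIA2 at 222 came first, and BT2 at 48.6 and BT1 at 5.17 stood below LBD38 and NAR2.1, which were at 57.0 and 21.5. In MYB30-OE, BT2 at 231 stood above NIR at 178, and BT1 at 101 stood above NRT1.1 at 72.9. Whether neighbours in these orders differ beyond the spread between libraries cannot be read from the tables.

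BT1 (AT5G63160) had the largest fall of the set in myb30 and rose in MYB30-OE. The gene lies on the minus strand of chromosome 5 from 25333263 to 25335485 (TAIR10, deposited annotation). Its implied level was 51.9 CPM in Col, 7.27 in the mutant and 141 in the overexpressor. The mutant thus kept 14.0% of the Col level and the overexpressor reached 272% of it. In the authors' deposited table of myb30 against Col the log2 fold change was -2.85 (approximate interval -3.21 to -2.48, adjusted p = 9.36e-49). This was rank 14 from the lowest of 18641 genes at 1 CPM or more, next to MYB30 at rank 15. In the authors' deposited table of MYB30-OE against Col BT1 rose by 1.45 on the log2 scale (interval 1.23 to 1.66, adjusted p = 2.69e-37), rank 118 from the highest of 18593.

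BT2 (AT3G48360, chromosome 3 minus strand, 17908192 to 17910525), the more abundant paralogue, also fell in myb30 and rose in MYB30-OE, with smaller fold changes. It stood at 261 implied CPM in Col, 69.9 in the mutant and 332 in the overexpressor. The deposited table gives a 3.77-fold fall in the mutant (log2 fold change -1.91, interval -2.19 to -1.64, adjusted p = 4.65e-39), rank 42 from the lowest. Against this the rise in the overexpressor was small, 1.27-fold in the authors' deposited table (log2 fold change 0.35, interval 0.22 to 0.48, adjusted p = 1.07e-05). Per kilobase of exon, the implied level of BT2 exceeded that of BT1 4.92 times in Col, 9.40 times in the mutant and 2.3 times in the overexpressor. The coding sequences of the pair are 71.3% identical and no run of 50 bases is shared between the transcripts.

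Directly between the 2 altered lines, BT1 was 19.6-fold lower in myb30 than in MYB30-OE in the authors' deposited table (log2 fold change -4.30, adjusted p = 1.13e-126), rank 6 from the lowest of 18684. BT2 was 4.80-fold lower (log2 fold change -2.26, adjusted p = 2.24e-55).

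LBD38 (AT3G49940, chromosome 3 plus strand, 18514343 to 18515475), a response gene of another family, passed in no comparison. Its implied level was 64.5 CPM in Col, 59.2 in the mutant and 57.8 in the overexpressor. The log2 fold change in the authors' deposited tables was -0.13 in the mutant (interval -0.42 to 0.15, adjusted p = 0.599) and -0.15 in the overexpressor (interval -0.31 to 0.01, adjusted p = 0.253). Between the altered lines it was 0.02 in the authors' deposited table (interval -0.26 to 0.31, adjusted p = 0.971).

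NIA2 (AT1G37130, chromosome 1 plus strand, 14158527 to 14161938) encodes the major nitrate reductase and was the most abundant of the 10 per kilobase in Col and MYB30-OE. Its implied level was 1090 CPM in Col, 696 in the mutant and 1363 in the overexpressor, which is 63.9% of Col in the mutant and 125% in the overexpressor. The authors' deposited tables give a 1.58-fold fall (log2 fold change -0.66, interval -0.87 to -0.45, adjusted p = 5.3e-08) and a 1.25-fold rise (0.33, interval 0.19 to 0.46, adjusted p = 6.07e-05). NIA1 (AT1G77760, chromosome 1 minus strand, 29235803 to 29239445), the minor isoform, stood at 704 CPM in Col, 471 in the mutant and 830 in the overexpressor. It fell 1.51-fold in the mutant in the authors' deposited table (log2 fold change -0.59, interval -0.84 to -0.34, adjusted p = 6.1e-05). In MYB30-OE it rose 1.18-fold there (0.24, interval 0.09 to 0.39, adjusted p = 0.0236). With Bonferroni adjustment NIA1 passed in neither comparison with Col (adjusted p = 0.0861 in the mutant and 1.00 in the overexpressor). In level per kilobase NIA2 exceeded NIA1 1.5 times in Col, 1.43 times in the mutant and 1.59 times in the overexpressor. Their coding sequences are 72.3% identical, again with no shared run of 50 bases. Between the altered lines, NIA2 was 1.98-fold and NIA1 1.78-fold lower in myb30 in the authors' deposited table (adjusted p = 5.08e-19 and 1.03e-10).

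NIR (AT2G15620, chromosome 2 plus strand, 6810476 to 6812939), whose product takes up the nitrite that nitrate reductase makes, passed in neither comparison with Col. It stood at 417 implied CPM in Col, 475 in the mutant and 377 in the overexpressor. The log2 fold changes in the authors' deposited tables were 0.18 in the mutant (interval -0.04 to 0.39, adjusted p = 0.265) and -0.14 in the overexpressor (interval -0.27 to -0.01, adjusted p = 0.175). The direct comparison in the authors' deposited table did pass, with NIR 1.25-fold higher in myb30 than in MYB30-OE (log2 fold change 0.32, interval 0.11 to 0.53, adjusted p = 0.011). Of the 10 genes, 6 passed in that comparison, NIR as higher in myb30 and NIA1, NIA2, BT1, BT2 and NRT2.1 as lower. Over all 25647 genes tested there, 16.2% were higher and 15.4% lower in myb30, 31.6% in either direction. Ratios of the first to the second reduction step are given without a test. In implied level NIA2 exceeded NIR per kilobase 1.76 times in Col and 2.44 times in MYB30-OE, but the ratio was 0.987 in myb30. For NIA1 over NIR the ratio was 1.18 in Col, 1.53 in MYB30-OE and 0.689 in myb30. With Bonferroni adjustment the difference of NIR between the altered lines did not pass (adjusted p = 1.00).

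**Figure D2:**
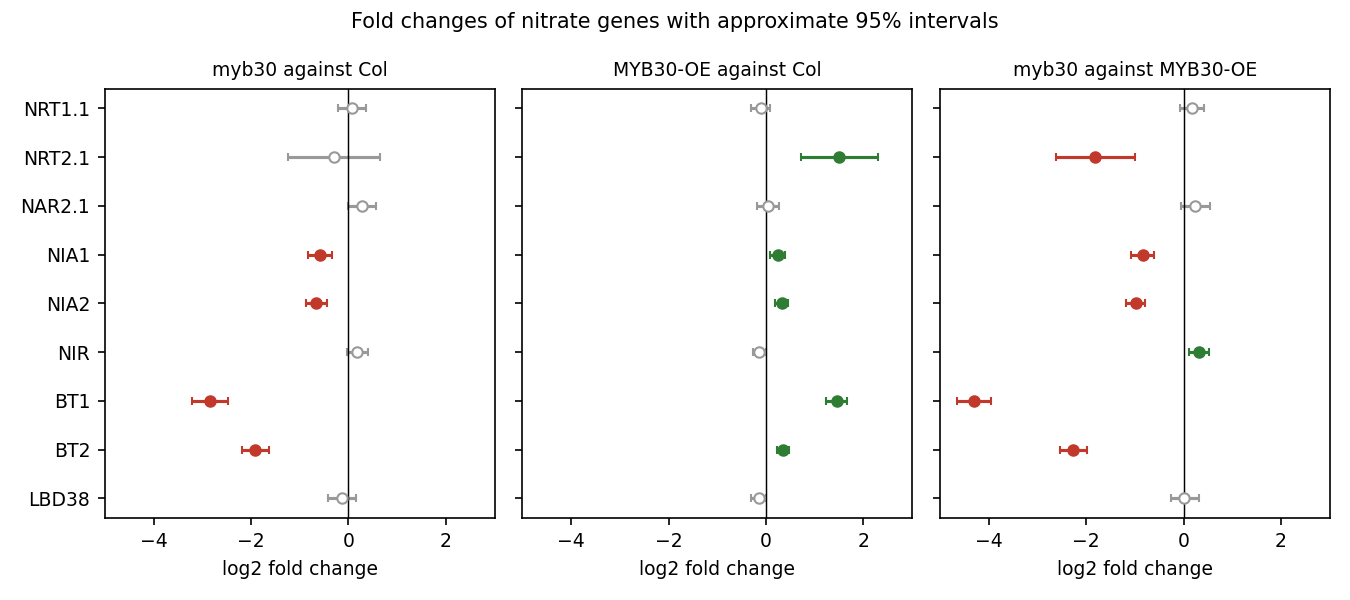
Log2 fold changes of 9 of the 10 genes in the authors' deposited tables, with approximate 95% intervals worked back from the deposited p-values; red marks genes lower and green genes higher in the first-named genotype at an adjusted p of 0.05, and open grey symbols did not pass. NRT2.2 is left out because too few reads support it, and BT1 lies farthest from 0 in the panels that involve myb30.

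NRT1.1 (AT1G12110, chromosome 1 plus strand, 4105233 to 4109545), the dual-affinity transporter and nitrate sensor, did not pass in any comparison (adjusted p = 0.333 between the altered lines). Its implied CPM was 169 in Col, 178 in the mutant and 156 in the overexpressor. The log2 fold change was 0.07 in the mutant (interval -0.22 to 0.35, adjusted p = 0.828) and -0.11 in the overexpressor (interval -0.30 to 0.08, adjusted p = 0.579) in the authors' deposited tables. NAR2.1 (AT5G50200, chromosome 5 plus strand, 20436180 to 20437726), the partner that NRT2 proteins need in the membrane, stood at 20.2 CPM in Col, 24.8 in the mutant and 20.7 in the overexpressor. It passed in neither comparison with Col (log2 fold change 0.28, interval -0.00 to 0.57, adjusted p = 0.164 in the mutant; 0.04, interval -0.19 to 0.27, adjusted p = 0.922 in the overexpressor, both from the authors' deposited tables).

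NRT2.1 (AT1G08090, chromosome 1 plus strand, 2524076 to 2526164), the main high-affinity transporter of roots on low nitrate, was low in all 3 genotypes. The implied level was 0.460 CPM in Col, 0.372 in the mutant and 1.29 in the overexpressor, from about 47.1, 38.8 and 130.7 reads over the 3 libraries. In MYB30-OE it rose 2.84-fold in the authors' deposited table (log2 fold change 1.5, interval 0.71 to 2.29, adjusted p = 0.0033). In myb30 it did not pass (log2 fold change -0.30, interval -1.25 to 0.65, adjusted p = 0.754, per the authors' deposited table). Directly compared, it was 3.49-fold lower in myb30 than in MYB30-OE in the authors' deposited table (adjusted p = 1.00e-04). With a pseudocount of 1 on implied CPM, the rise in MYB30-OE shrank to 0.66 on the log2 scale, and with Bonferroni adjustment neither this rise (adjusted p = 1.00) nor the direct difference (adjusted p = 0.309) passed. NAR2.1 exceeded NRT2.1 72.3 times per kilobase in Col, 110 times in the mutant and 26.5 times in the overexpressor.

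NRT2.2 (AT1G08100, chromosome 1 minus strand, 2527170 to 2529120), the neighbouring paralogue of NRT2.1, faces it end to end across 1005 bases. About 6.9 reads were implied over the 3 myb30 libraries, 2.1 over those of MYB30-OE and none over those of Col. Set against a floor of 3 reads over the 3 Col libraries, the implied reads in myb30 were 2.32 times as many. This ratio leaves out the error of the myb30 count, so it is not a lower bound of the fold. The comparison did not pass (adjusted p = 0.0965), and no fold can be given for MYB30-OE against Col (adjusted p = 0.812). A low count is not a measure of absence here, because the pair shares sequence and the rule for counting such reads was not given in the sources used here. Their coding sequences are 88.1% identical, and 10.5% of the 50-base runs of the NRT2.2 transcript occur in that of NRT2.1. The longest stretch shared letter for letter, 170 bases in exon 1 of both genes, is shown because a read inside it cannot be assigned to either. It lies at chr1:2524520-2524689 on the plus strand in NRT2.1 and at chr1:2528534-2528703 on the minus strand in NRT2.2 (TAIR10.1).
NRT2.1 and NRT2.2: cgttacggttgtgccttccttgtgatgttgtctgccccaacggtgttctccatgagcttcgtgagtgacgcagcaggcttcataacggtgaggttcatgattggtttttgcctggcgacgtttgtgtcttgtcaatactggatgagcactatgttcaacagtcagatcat

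**Figure D3:**
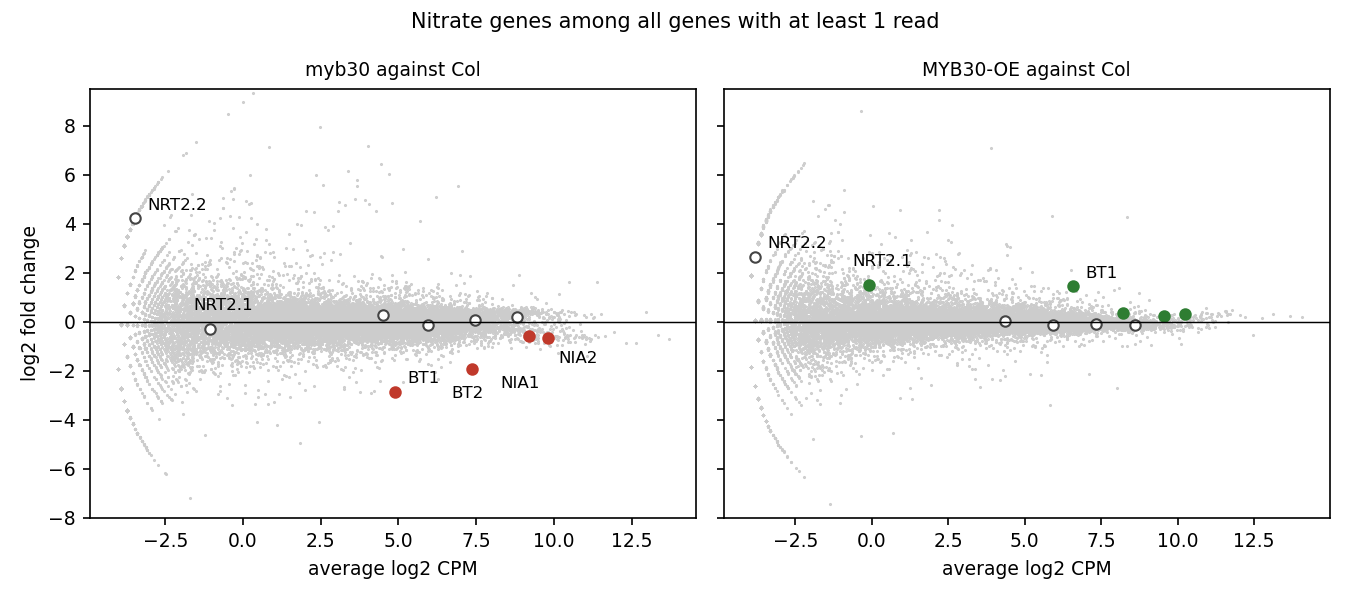
Log2 fold change against average log2 CPM for all genes with at least 1 read (grey points) and for the 10 nitrate genes (large symbols; red fell, green rose, open did not pass). In myb30, BT1 and BT2 lie low, at average log2 CPM of 4.90 and 7.38. Their ranks were 14 and 42 from the lowest of 18641 genes at 1 CPM or more. NRT2.1 and NRT2.2 lie at the sparsely read end.

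Tissue markers moved in the same libraries. All 9 green tissue markers, Rubisco, carbonic anhydrase, light harvesting and photorespiration genes, fell in myb30 in the authors' deposited table (median log2 fold change -0.85). Their summed implied level was 54589 CPM in Col, 32743 in myb30, or 60.0% of Col, and 63677 in MYB30-OE, or 117%. NIA1 and NIA2 stood at 66.9% and 63.9% of Col in myb30 and at 118% and 125% in MYB30-OE. BT1 at 14.0% in the mutant and 272% in the overexpressor lay outside the range of single green markers, 38.3% to 68.8% and 98.2% to 135%. BT2 at 26.7% in the mutant lay outside that range, and at 127% in the overexpressor inside it. Among 15 root tissue markers 6 rose and 2 fell in myb30, and 2 rose and 1 fell in MYB30-OE. Of all tested genes, 10.8% rose and 10.7% fell in myb30, and 5.99% rose and 5.49% fell in MYB30-OE. The summed levels of the root markers were 152 CPM in Col, 177 in the mutant and 152 in the overexpressor. Single root markers ranged from 62.0% to 238% of Col in myb30 and from 47.1% to 151% in MYB30-OE. NIA1 and NIA2 lay inside the range of the green and of the root markers in both lines. No marker was at 0 or under 1 CPM. The Rubisco small subunit genes are near-identical copies, and their reads may be split between them. The part of tissue make-up in the changes of the nitrate genes was not tested, and in whole seedlings fewer cells of a type and less RNA per cell cannot be told apart.

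The rest of the pathway was followed in 4 lists with 84 genes that have a row, of which 82 had a read in the table of myb30 against Col. In myb30, 12 of them rose and 20 fell (median log2 fold change -0.13, against 0.01 over all tested genes, per the authors' deposited table). The shares of all tested genes were 10.8% and 10.7%. In MYB30-OE, 13 of 83 rose and 12 fell (median -0.02 against 0.00), beside 5.99% and 5.49% of all tested genes. Between the altered lines, 19 of 83 were higher and 28 lower in myb30 (median -0.13 against 0.03, per the authors' deposited table). The shares of all tested genes there were 16.2% and 15.4%. In that comparison HB1 (3.13, adjusted p = 1.75e-32) and RFNR1 (1.21, adjusted p = 8.65e-25) had the largest deposited log2 fold changes among passing cofactor and reductant genes at 1 CPM or more. By the same limits the largest were those of ASN1 (-3.85, adjusted p = 1.32e-89) among ammonium genes, BT5 (-1.94, adjusted p = 1.67e-16) among regulators and NRT2.3 (-1.68, adjusted p = 3.72e-04) among transport genes. Below 1 CPM on average, the regulator gene ANR1 passed with a larger deposited value (2.19, adjusted p = 0.0304). In the accounts of the lists, a gene given for only 1 comparison with Col did not pass in the other.

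Among 18 other nitrate transport genes, 2 rose and 4 fell in myb30 (median log2 fold change -0.19), beside 10.8% and 10.7% of tested genes. In MYB30-OE 4 rose and 1 fell (median -0.02), beside 5.99% and 5.49% of tested genes. NRT1.11, a low-affinity transporter of the phloem, went from 38.9 implied CPM in Col to 21.0 in myb30 and 51.4 in MYB30-OE, with deposited log2 fold changes of -0.90 and 0.41 (adjusted p = 2.34e-07 and 9.1e-05). CLCB, a vacuolar nitrate exchanger, had the reverse order, 26.3 CPM in Col, 34.6 in the mutant and 19.0 in the overexpressor (deposited log2 fold changes 0.38 and -0.47, adjusted p = 0.0174 and 2.07e-05). NRT2.3, of the high-affinity family, fell in myb30 in the authors' deposited table (log2 fold change -1.65, adjusted p = 2.18e-04) at a low level of 1.55 CPM in Col. The nitrate efflux gene NAXT1 rose in myb30 (deposited log2 fold change 0.81, adjusted p = 9.05e-07). NPF6.2 fell there (deposited log2 fold change -0.43, adjusted p = 0.00327). In MYB30-OE, SLAH3, a nitrate-permeable anion channel gene, rose from 14.3 to 27.7 CPM (deposited log2 fold change 0.96, adjusted p = 1.22e-13). NRT1.8, which takes nitrate back from the xylem, also rose there (deposited log2 fold change 0.87, adjusted p = 0.022). Below 1 CPM on average, NRT2.6 rose in MYB30-OE with a larger deposited value (2.05, deposited unadjusted p = 0.00106). It rests on about 15.3 reads in Col and 62.5 in MYB30-OE.

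Of 33 nitrate signalling and regulator genes, 1 rose and 9 fell in myb30 (median log2 fold change -0.22, per the authors' deposited table). The shares of all tested genes were 10.8% and 10.7%. In MYB30-OE 5 rose and 3 fell (median -0.00), beside 5.99% and 5.49% of all tested genes. The BT family has further members in this list. BT5 fell from 33.2 to 11.2 CPM in myb30 (deposited log2 fold change -1.57, adjusted p = 2.58e-12) and did not pass in MYB30-OE (0.37, adjusted p = 0.066). BT4 did not pass in the mutant (deposited log2 fold change 0.29, adjusted p = 0.0727) and rose in the overexpressor (0.81, adjusted p = 9.43e-12). BT3, at 2.19 CPM in Col, passed in neither (deposited log2 fold changes -0.58 and -0.36, adjusted p = 0.108 and 0.382).

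NLP7, the transcription factor that binds nitrate and switches on nitrate-responsive genes, fell from 41.7 to 29.8 CPM in myb30 (deposited log2 fold change -0.50, adjusted p = 5.29e-04) and did not pass in MYB30-OE (0.19, adjusted p = 0.105). TGA4, a bZIP regulator of the nitrate response in roots, fell in myb30 (deposited log2 fold change -0.53, adjusted p = 2.14e-04). BZIP1, a bZIP factor of nitrogen and energy signalling, fell in myb30 (deposited log2 fold change -0.74, adjusted p = 2.11e-04) and rose in MYB30-OE (0.48, adjusted p = 9.29e-04). The myb-like factor gene AT1G25550 fell in myb30 (deposited log2 fold change -0.82, adjusted p = 6.32e-10). AT1G68670, of the same annotation, fell in myb30 and rose in MYB30-OE (deposited log2 fold changes -0.40 and 0.49, adjusted p = 0.00353 and 4.26e-07). CPK32, a calcium-dependent kinase gene of nitrate signalling, also fell in myb30 and rose in MYB30-OE (deposited log2 fold changes -0.46 and 0.67, adjusted p = 0.002 and 1.02e-04). NLP3 fell in MYB30-OE (deposited log2 fold change -0.90, adjusted p = 0.0216). LBD37, a close relative of LBD38, went from 118 to 84.4 CPM in myb30 (deposited log2 fold change -0.49, adjusted p = 8.96e-05). LBD39 fell in MYB30-OE (deposited log2 fold change -0.27, adjusted p = 0.0248). In myb30 its deposited log2 fold change was also negative, but it did not pass.

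Of 15 measured cofactor and reductant supply genes, 7 rose and none fell in myb30 (median log2 fold change 0.29, per the authors' deposited table). The shares of all tested genes were 10.8% and 10.7%. In MYB30-OE none rose and 4 fell (median -0.15), beside 5.99% and 5.49% of all tested genes. The genes of this list that moved encode enzymes and carriers of electron supply and a haemoglobin. Neither UPM1 nor any of the 6 molybdenum cofactor genes was among them. RFNR1, a root-type ferredoxin reductase that feeds nitrite reduction, went from 56.2 CPM in Col to 98.4 in myb30 and 42.2 in MYB30-OE (deposited log2 fold changes 0.80 and -0.41, adjusted p = 1.38e-10 and 1.2e-04). FD3, the root-type ferredoxin gene, rose in myb30 (deposited log2 fold change 0.69, adjusted p = 1.72e-05), and so did G6PD3, a plastid glucose-6-phosphate dehydrogenase gene (0.70, adjusted p = 8.51e-08). The 6-phosphogluconate dehydrogenase gene AT5G41670 rose in myb30 and fell in MYB30-OE (deposited log2 fold changes 0.66 and -0.36, adjusted p = 1.19e-07 and 3.93e-05). RFNR2, a paralogue of RFNR1, rose in myb30 and fell in MYB30-OE (deposited log2 fold changes 0.51 and -0.29, adjusted p = 0.00123 and 0.0192). HB1, a haemoglobin gene induced by nitrate and by low oxygen, had the widest span of the list, with 38.7 CPM in Col, 114 in the mutant and 12.8 in the overexpressor (deposited log2 fold changes 1.55 and -1.59, adjusted p = 1.56e-06 and 2.06e-13). UPM1, which makes a precursor of the nitrite reductase cofactor, did not pass (deposited log2 fold changes -0.10 and 0.02, adjusted p = 0.612 and 0.954). The molybdenum cofactor gene CNX1 did not pass either (deposited log2 fold changes 0.19 and 0.06, adjusted p = 0.212 and 0.772).

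**Figure D4:**
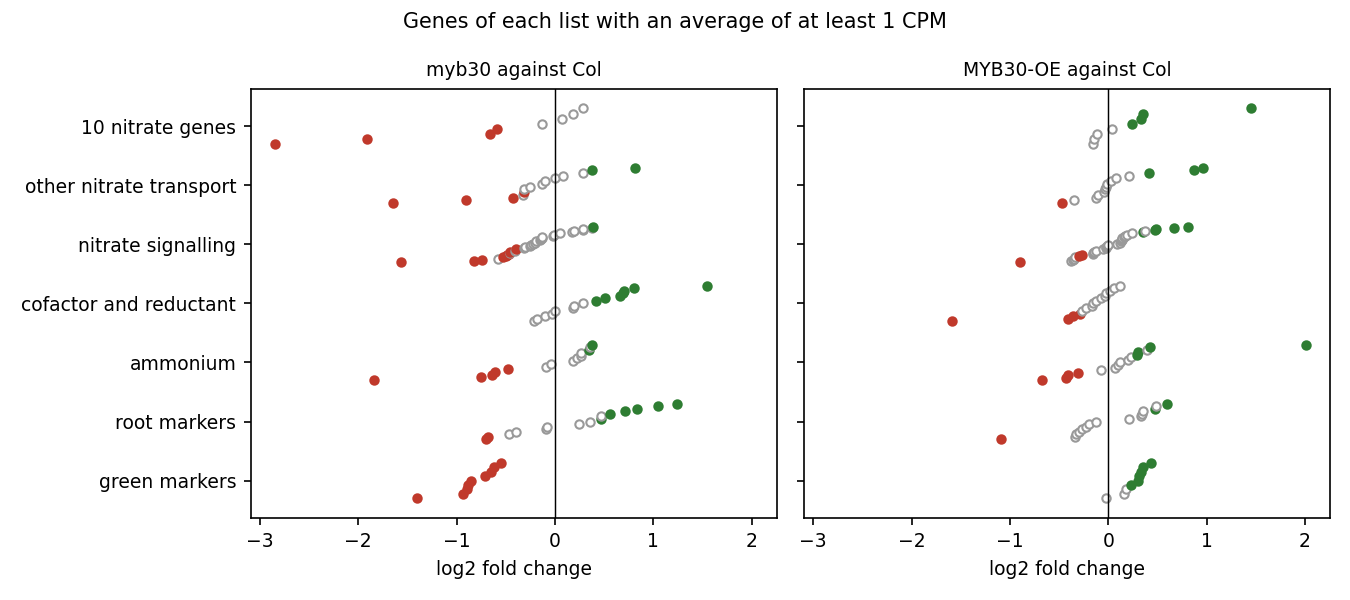
Log2 fold changes in the authors' deposited tables of genes with an average of at least 1 CPM, by list, in both comparisons with Col; red points fell and green points rose at an adjusted p of 0.05, and open points did not pass. Cofactor and reductant genes that passed lie to the right in myb30 (7 of 15) and to the left in MYB30-OE (4 of 15), whereas the 9 green markers all lie to the left in myb30. Of all tested genes, 10.8% rose and 10.7% fell in myb30, and 5.99% rose and 5.49% fell in MYB30-OE.

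Among 16 measured genes of ammonium uptake and assimilation, 2 rose and 7 fell in myb30, beside 10.8% and 10.7% of all tested genes. The median log2 fold change was -0.06, per the authors' deposited table, and 0.07 among the 14 at 1 CPM or more. In MYB30-OE 4 of 17 rose and 4 fell (median 0.12), beside 5.99% and 5.49% of all tested genes. ASN1, an asparagine synthetase gene, went from 15.1 CPM in Col to 4.25 in myb30 and 60.7 in MYB30-OE (deposited log2 fold changes -1.84 and 2.01, adjusted p = 1.26e-08 and 1.35e-18). GLN2, the plastid glutamine synthetase gene, went from 2370 CPM in Col to 1536 in myb30 and 2917 in MYB30-OE (deposited log2 fold changes -0.64 and 0.30, adjusted p = 2.78e-07 and 4.27e-04). GLU1, the ferredoxin-dependent glutamate synthase gene of leaves, fell in myb30 (deposited log2 fold change -0.75, adjusted p = 0.00174), as did ASN2 (-0.61, adjusted p = 4.97e-06). The cytosolic glutamine synthetase gene GLN1;2 had the reverse order and rose in myb30 (deposited log2 fold change 0.38, adjusted p = 0.0188) and fell in MYB30-OE (-0.43, adjusted p = 4.45e-06). AMT1;2, an ammonium transporter gene, fell in both lines (deposited log2 fold changes -0.48 and -0.41, adjusted p = 0.001 and 9.78e-04). AMT1;3 fell in MYB30-OE (deposited log2 fold change -0.67, adjusted p = 0.00707), where AMT2;1 rose (0.42, adjusted p = 0.0145). Below 1 CPM on average, AMT1;4 and GLN1;4 fell in myb30 (deposited log2 fold changes -2.95 and -1.58, deposited unadjusted p = 5.49e-04 and 4.16e-06). AMT1;4 rests on about 30.2 reads in Col and 3.6 in myb30. AMT1;1, a main ammonium transporter gene of roots, is listed at 0 in the table of myb30 against Col, which does not show that it was absent.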

How the data were processed

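The 9 libraries, 3 per genotype, were compared in pairs by the authors. TopHat, Cufflinks, Cuffdiff and TAIR10 are named in the submitters' processing notes, without versions. Per the file headers, the deposited gene tables hold log2 fold changes, log2 CPM averaged over a pair and unadjusted p-values, under the column names that edgeR's exact test writes; how reads were counted and whether strand was kept is not stated. Sample descriptions in the labels linked each table to its genotypes. The transposable element tables were not used.

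From the deposited values, Python 3.11.15 with numpy 2.4.6, pandas 2.3.3, scipy 1.17.1 and Biopython 1.88 computed the rest. Rows at the floor of the averaged log2 CPM (24.3% to 24.7%) were taken as without reads and left out, and the deposited p-values of the others were adjusted (Benjamini-Hochberg, 0.05). Implied reads and CPM follow from that floor and the fold change, assuming added counts of 2 and 0.125 per library and equal library sizes. Implied standard errors are the fold change over the normal score of its p-value, where both genotypes had at least 3 implied reads; tested on simulated data, they came out somewhat narrow for changed genes. For genes at 1 CPM or more, median log2 fold changes were 0.02 (myb30 against Col), 0.00 (MYB30-OE against Col) and 0.02 (myb30 against MYB30-OE). The read floor covers counting error only.

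Positions and exon lengths are from the deposited TAIR10 annotation, and sequences and names from RefSeq TAIR10.1, where 99.98% of 27172 deposited coding transcripts start with ATG. Motifs were searched on both strands.

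The members and lists were chosen with earlier results of these data known. Named are all members and, per pathway list and comparison with Col, the 5 largest passing changes at 1 CPM or more, with the first of these for myb30 against MYB30-OE (both of the first 2 for reductant genes). Some genes that passed outside that rule are also named and were chosen after their values were seen. They include LBD37, GLN1;2, CPK32, AT1G68670 and RFNR2 in myb30, GLN2 and LBD39 in MYB30-OE and ANR1 between the altered lines. Other genes that passed outside that rule are counted but not named. Of 119 list genes 118 had a row, and 1 was not analysed here. Alternatives were other adjustments, thresholds, filters, centring, a pseudocount and the other tables.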

Additional observations from a re-analysis of the deposited data

How the results depend on the processing

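Of the alternatives, a threshold of 0.01, Benjamini-Yekutieli adjustment, a minimum of 1 CPM and no filter on genes without reads left the member counts within 1.5 times of 4 in myb30, 5 in MYB30-OE and 6 between the altered lines. Bonferroni adjustment gave 3 in MYB30-OE, and a 1.5-fold change required beside the Benjamini-Hochberg threshold gave 2. For the other pathway genes, Bonferroni adjustment gave 12, 8 and 24 in place of 32, 25 and 47, the 1.5-fold requirement gave 17, 9 and 26, and Benjamini-Yekutieli adjustment gave 15 in MYB30-OE. Under Bonferroni adjustment NIA1 no longer passed in myb30 (adjusted p = 0.0861) or MYB30-OE (1.00), nor NRT2.1 in MYB30-OE (1.00) or between the altered lines (0.309), nor NIR between them (1.00). NRT2.1 and NRT2.2 averaged under 1 CPM in all 3 tables and have no value with that minimum. A pseudocount of 1 on implied CPM moved NRT2.1 to 0.66 in MYB30-OE and -0.74 between the altered lines, and NRT2.2 to 0.09, 0.03 and 0.06 in the mutant, the overexpressor and between them. No called member changed sign under centring, the pseudocount or the difference of the other tables. These 3 settings could hardly have changed one, so this is no separate support. A pseudocount keeps the sign of a ratio, the medians used for centring were 0.00 to 0.02, and the other tables rest on the same libraries. No paired analysis was possible because the tables carry no value per library, and for the same reason no replicate could be left out.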
